A study of Homo sapiens with 12 samples.

Results

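The genes described here encode the proton pump of the lysosome, its cathepsin proteases and its most abundant membrane proteins, measured in MDA-MB-231, a mesenchymal line of human breast cancer that lacks hormone receptors and HER2. A member is any symbol of the deposited count table that begins with ATP6V0 or ATP6V1, that is CTS followed by 1 letter, or that is LAMP1, LAMP2 or LAMP3, with pseudogenes of the pump left out and ATP6AP1 and ATP6AP2 added. The rule uses symbols and no measured value, but it was set with earlier results of these data known. It gave 43 members among 24641 symbols, of which 40 had enough reads to be tested among 15648 tested genes. They comprise 22 symbols of the V1 and V0 sectors, 2 accessory subunits, 14 cathepsins, 3 LAMP genes and 2 antisense transcripts of pump genes. Messenger RNA was sequenced in 4 groups of 3 libraries: cells with a control short hairpin RNA (shControl) in normoxia, cells with a hairpin against RIPOR3 (shRIPOR3) in normoxia, and both lines in hypoxia, at 1% O2 for 24 hours. All libraries thus come from cells that carry a hairpin, and a parental line without one is not analysed here. The question of the study was how RIPOR3 bears on tumour growth and metastasis in breast cancer. The file names of the shRIPOR3 libraries carry the tag sh4, which points to 1 hairpin, and nothing in the labels says whether a line is a clone or whether replicates were separate cultures, so p-values measure the spread between these libraries, which may be technical.

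The vacuolar ATPase (V-ATPase) is a rotary pump that acidifies lysosomes and endosomes. Its V1 sector in the cytosol hydrolyses ATP on a head of A and B subunits, with D and F forming the rotor, E and G the outer stalks, and C and H regulating the contact with the membrane. Its V0 sector in the membrane holds the proton-carrying ring of c and c'' subunits beside the a subunit, with d and e subunits attached. The acid that the pump makes is what cathepsins need to mature and to cut proteins: most are cysteine proteases, cathepsins D and E are aspartic proteases and cathepsin A is a serine carboxypeptidase. LAMP1 and LAMP2 are heavily glycosylated proteins that line the lysosomal membrane. Breast cancer cells are known to use lysosomal proteases at the cell surface as well, where cathepsins B and L degrade matrix.

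Many genes of the lysosome carry a palindromic box around the letters CACGTG near their start, the site known for the basic helix-loop-helix factors TFEB, TFE3 and MITF. The stretches that hold it in 6 members are printed 5′ to 3′ on the gene's strand, with CACGTG in capitals. These members were chosen because their promoters held the longer form GTCACGTG on either strand. No cysteine cathepsin and no accessory subunit is among them, but the cysteine cathepsins CTSB, CTSK, CTSO, CTSS and CTSW had no promoter to search. The stretches were taken from RefSeq promoters (GRCh38.p14, 250 bases before to 50 after the start).
ATP6V1G1, chr9:114587691-114587736, plus strand: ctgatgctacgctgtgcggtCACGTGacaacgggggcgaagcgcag
ATP6V0B, chr1:43974900-43974929, plus strand: ggtCACGTGgtaccggcgcatCACGTGggc
ATP6V0D1, chr16:67481199-67481228, minus strand: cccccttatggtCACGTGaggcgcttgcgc
CTSA, chr20:45891290-45891318, plus strand: tgtCACGTGgcgccggagttCACGTGact
CTSD, chr11:1763957-1763986, minus strand: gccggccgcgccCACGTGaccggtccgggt
LAMP1, chr13:113297027-113297236, plus strand: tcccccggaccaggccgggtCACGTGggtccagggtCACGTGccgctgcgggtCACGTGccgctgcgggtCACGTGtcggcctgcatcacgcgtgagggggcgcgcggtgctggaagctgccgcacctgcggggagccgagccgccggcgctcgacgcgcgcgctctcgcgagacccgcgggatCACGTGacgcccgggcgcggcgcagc
Each stretch ends 3 to 42 bases before the RefSeq start. The LAMP1 stretch held the box 5 times, those of ATP6V0B and CTSA held it 2 times and the other 3 held it once. Of the 43 members 29 had a promoter in the table, and 8 of these (27.6%) held CACGTG, ATP6V0E2 and CTSF being the 2 not printed, while 8.77% of 27305 genes with a promoter did. The longer form GTCACGTG, searched on both strands, stood in 6 of 29 (20.7%) against 2.93% of all genes, and TCACGTGA in 4 of 29 (13.8%) against 1.18%. Only ATP6V1G1 held the core with GT before it and AC after it, which 0.421% of all genes had. All 4 patterns share the CACGTG core, so these counts overlap, and a match of letters does not show that a factor binds there.

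Depth differed with oxygen: the 6 normoxia libraries held 14750734 to 30032858 counts and the 6 hypoxia libraries 31781324 to 52526813, so that depth and oxygen cannot be told apart. Replicates were close, with a biological coefficient of variation of 3.75%, although all 12 replicate pairs differed by more than sampling noise. RIPOR3 itself was sparse, with 7, 3 and 7 counts in shControl and 0, 0 and 1 in shRIPOR3 in normoxia, and with 33, 18 and 30 counts in shControl and 9, 3 and 11 in shRIPOR3 in hypoxia. The counts were thus lower in shRIPOR3 at both oxygen levels. The mesenchymal markers VIM, AXL, CD44 and ZEB1 stood at 133 to 760 CPM (counts scaled to library size) in every library. The luminal epithelial list summed to 5.9 to 9.47 CPM: ESR1 and PGR were at no more than 0.683, CDH1 at 0.77 to 1.65 and EPCAM at 4.22 to 8.02. Leukocyte and macrophage markers, of cells known for high cathepsin levels, were scarce: PTPRC reached 0.151 CPM, CD3E 0.0837, CD14 0.842 and CSF1R 1.32, and this leukocyte list summed to 0.525 to 1.61 CPM. Of the osteoclast and intercalated cell list OSCAR stood at 2.88 to 8.75 CPM and CALCR at 0.158 to 0.988. The intercalated cell markers FOXI1 and SLC4A1 had no counts listed, so that cell type was not checked. The endothelial markers PECAM1 and CDH5 reached 5.61 and 8.6 CPM.

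Per kilobase of exon, members spanned a wide range in these cells. The scale here is CPM, counts as a share of the library total scaled by the trimmed mean of M-values (TMM), divided by the exon length of the gene in GENCODE 29, which understates genes with many alternative exons. ATP6V1G1, a stalk subunit of V1, led with a mean over the 4 groups of 107 CPM per kb, followed by the cysteine cathepsins CTSZ at 91.4 and CTSL at 88.7. CTSZ and CTSL changed places between groups: CTSZ was at 107 CPM per kb and CTSL at 62.9 in shControl in hypoxia, but at 78.5 and 111 in shRIPOR3 in normoxia. ATP6V1E1 at 31.3, CTSB at 28.6, ATP6V0E1 at 20.7, LAMP1 at 18.9 and ATP6V1D at 17.8 CPM per kb came next. The subunits that the pump needs were therefore read at unequal levels, since ATP6V0C, the c subunit of the membrane ring, had only 2.27 and ATP6V0B, the c'' subunit, 2.66 CPM per kb. ATP6V0C has near-identical copies elsewhere in the genome and shares 862 of its 1498 exon bases with AC093525.2 on the same strand, so its reads could be split or lost in counting.

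Isoforms known from specialised tissues were at the bottom of the order. Total counts over all 12 libraries were 38 for ATP6V0D2, the osteoclast d subunit, 30 for ATP6V1G3, a kidney stalk subunit, and 8 for ATP6V1B1, the B subunit of kidney intercalated cells, and these 3 members were not tested. The widely used partners ATP6V0D1, ATP6V1G1 and ATP6V1B2 had 4.65, 107 and 6.28 CPM per kb. Of the a subunits ATP6V0A2 had 3.37, ATP6V0A1 1.93 and the kidney form ATP6V0A4 0.295 CPM per kb. The osteoclast a subunit is named TCIRG1, which the choice by symbol does not take.

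**Figure D1:**
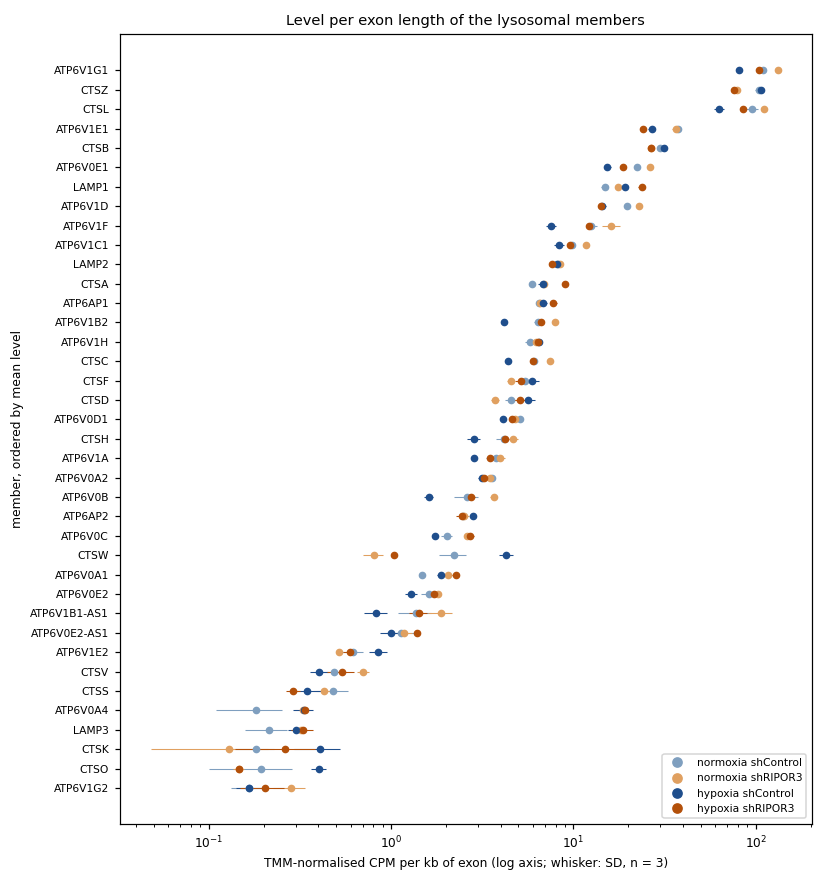
Level of 38 of the 43 members in CPM per kb of exon on a log axis, one row per gene ordered by the mean over groups, with a point for the mean of each group (n = 3) and a whisker for its SD. The 5 members left out had a mean of 0.2 CPM per kb or less; ATP6V1G1, CTSZ and CTSL stand at the top.

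Many genes of the proton pump were lower in hypoxia, while LAMP1, cathepsin D and cathepsin A were higher. In shControl 12 of 19 tested V1 and V0 genes fell and 4 rose, and in shRIPOR3 10 fell and none rose, by edgeR's quasi-likelihood test at a Benjamini-Hochberg adjusted p of 0.05 over all genes. The pump genes that fell were 63.2% and 52.6% of those tested, beside 32.4% and 30.4% of all tested genes and 48.9% and 46.4% of those above 10 CPM. With DESeq2 8 of the 19 fell in shRIPOR3. Summed over the 22 pump symbols, the level was 685 ± 9.41 CPM (SD, n = 3) in normoxia and 535 ± 9.42 in hypoxia in shControl, and 769 ± 15.1 and 612 ± 4.32 in shRIPOR3. Summed cathepsins moved less, from 829 ± 8.31 to 754 ± 17.9 CPM in shControl and from 804 ± 10.0 to 738 ± 17.5 in shRIPOR3. CTSL alone went from 227 to 149 and from 262 to 201 CPM. By gene, 5 of 14 cathepsins rose and 5 fell in shControl (35.7% each), and 3 rose (21.4%) and 5 fell (35.7%) in shRIPOR3. Of all tested genes 32.4% and 25.2% rose. LAMP genes together went the other way, from 132 ± 6.76 to 157 ± 2.23 and from 148 ± 3.46 to 180.3 ± 6.55 CPM. LAMP1 alone went from 85.5 to 111 and from 101 to 137 CPM. In bulk RNA, a lower level in every cell and fewer cells that express a gene cannot be told apart.

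Among all 40 tested members 11 rose and 18 fell in hypoxia in shControl, where 32.4% of all tested genes rose and 32.4% fell (64.8% called in either direction). In shRIPOR3 5 members rose and 17 fell, against 25.2% and 30.4% (55.6% called). The members that fell thus made up 45% and 42.5% of those tested. These shares were near those of genes above 10 CPM. The median log2 fold change of the pump genes was -0.30 in shControl and -0.18 in shRIPOR3, beside -0.11 and -0.09 over genes above 10 CPM and 0.02 and -0.01 over all tested genes. Scaling to library totals moved the median of all genes to 0.13 and 0.11, and then 16 members rose and 14 fell in shControl and 10 rose and 11 fell in shRIPOR3. Under that scaling 10 pump genes fell and 4 rose in shControl, and 8 fell and 2 rose in shRIPOR3, with medians of -0.19 and -0.06. No library is shared by the 2 hypoxia comparisons: 15 members fell in both, CTSA, CTSD and LAMP1 rose in both, and none was called in opposite directions. How many of all tested genes were called alike in both was not counted, so these numbers have no background to be read against.

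**Figure D2:**
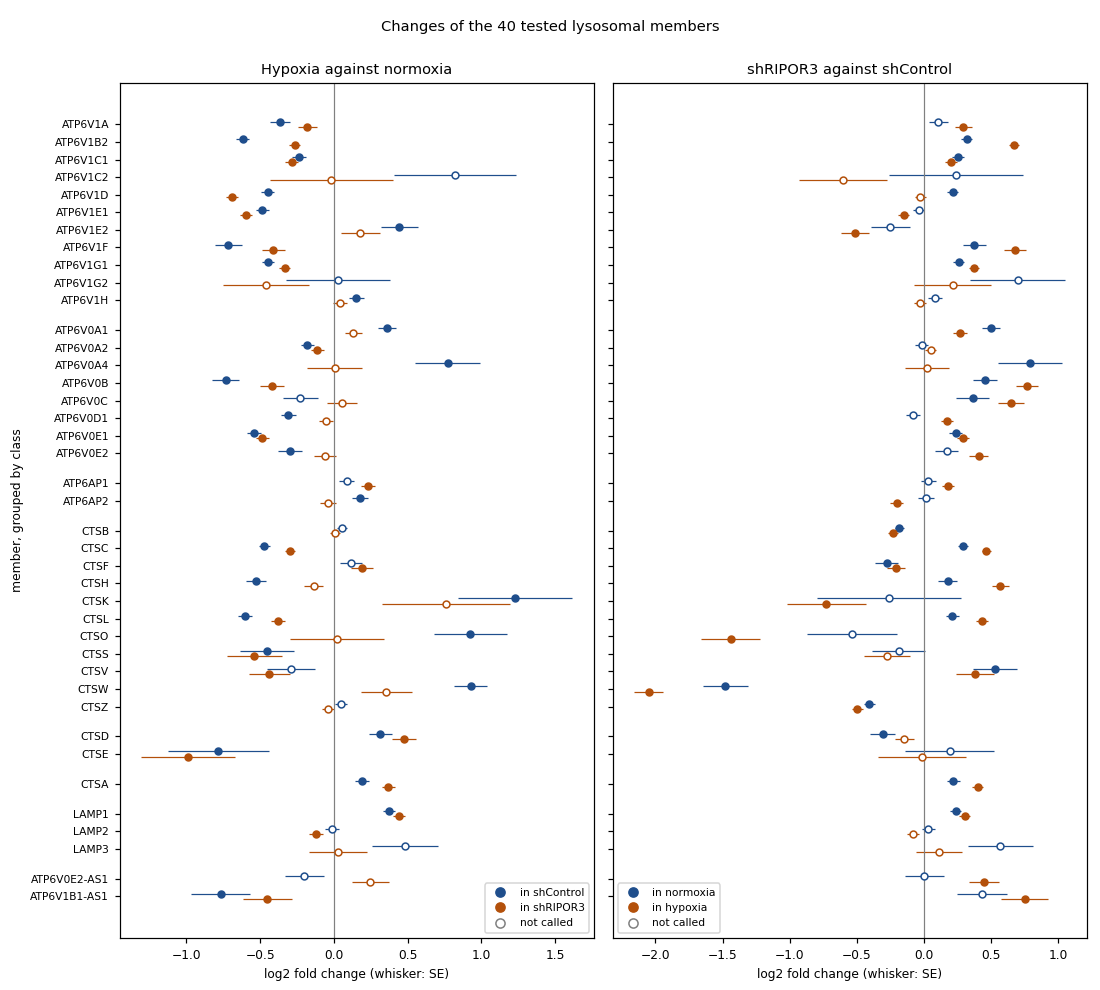
Log2 fold change of the 40 tested members, grouped by class, for hypoxia against normoxia (left, in shControl and in shRIPOR3) and for shRIPOR3 against shControl (right, in normoxia and in hypoxia). Whiskers are standard errors from the fit and open points missed the threshold; the V1 and V0 rows at the top lie mostly left of 0 in the left panel and right of 0 in the right panel.

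Within the V1 sector the fall covered the catalytic head, the rotor and the stalks. Levels in single libraries are given in TMM-normalised CPM, and fold changes are log2 values with the standard error of the fit. ATP6V1B2 (ENSG00000147416.10, chr8:20197367-20226819, plus strand) is the B subunit of the head. It read 50.1, 47.6 and 51.4 CPM in shControl in normoxia and 32.7, 31.7 and 33.0 in hypoxia, and 61.4, 63.0 and 62.5 against 51.8, 51.0 and 52.6 in shRIPOR3. Every hypoxia library lay below every normoxia library of the same line, with log2 fold changes of -0.62 ± 0.042 (adjusted p = 4.01e-12) in shControl and -0.27 ± 0.039 (adjusted p = 2.39e-06) in shRIPOR3. The A subunit ATP6V1A, which carries the catalytic site, fell, with a log2 fold change of -0.37 ± 0.068 (adjusted p = 4.53e-05) in shControl. Its change in shRIPOR3 was -0.18 ± 0.064 (adjusted p = 0.02), and leaving out any of 4 libraries ended that call (adjusted p of 0.0604 to 0.144).

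ATP6V1D (ENSG00000100554.11, chr14:67294371-67360265, minus strand) is the central rotor subunit. Its level was 86.7, 81.9 and 82.5 CPM in shControl and 99.5, 93.3 and 99.2 in shRIPOR3 in normoxia. In hypoxia it was 58.3, 63.1 and 62.7 in shControl and 60.6, 57.7 and 62.2 in shRIPOR3. The lines were apart in normoxia and overlapped in hypoxia, and the log2 fold changes were -0.45 ± 0.043 (adjusted p = 2.38e-09) and -0.69 ± 0.042 (adjusted p = 1.82e-12). ATP6V1F (ENSG00000128524.4, chr7:128862826-128865844, plus strand) is the other rotor subunit. It had 10.0, 10.5 and 9.20 CPM in normoxia and 5.95, 6.39 and 5.61 in hypoxia in shControl, and 13.5, 11.1 and 13.7 against 9.74, 9.27 and 9.68 in shRIPOR3. The normoxia and hypoxia libraries did not overlap in either line, with changes of -0.72 ± 0.09 (adjusted p = 1.99e-07) and -0.41 ± 0.078 (adjusted p = 8.47e-05).

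ATP6V1E1 (ENSG00000131100.12, chr22:17592136-17628818, minus strand) is the common stalk subunit E. Its libraries read 123, 123 and 116 CPM in shControl and 115, 114 and 123 in shRIPOR3 in normoxia, against 83.6, 91.0 and 84.0 against 76.4, 79.6 and 77.2 in hypoxia. All hypoxia libraries were below all normoxia libraries, whichever hairpin they carried, and the log2 fold changes were -0.49 ± 0.043 (adjusted p = 4.56e-10) in shControl and -0.60 ± 0.042 (adjusted p = 2.45e-11) in shRIPOR3. The testis-type stalk subunit ATP6V1E2 instead rose in shControl, from 3.28 ± 0.421 to 4.51 ± 0.528 CPM (log2 fold change 0.44 ± 0.12, adjusted p = 0.00313), and had 0.18 ± 0.13 (adjusted p = 0.261) in shRIPOR3. The stalk subunit ATP6V1G1 fell, with log2 fold changes of -0.45 ± 0.039 and -0.33 ± 0.038, and the regulatory subunit ATP6V1C1 did so with -0.23 ± 0.047 and -0.29 ± 0.045. The largest adjusted p of these 4 tests was 0.000113. ATP6V1H, the regulatory subunit H, rose slightly in shControl (0.15 ± 0.05, adjusted p = 0.0102), a call that ended without the second shControl library in normoxia (adjusted p = 0.0696). ATP6V1C2 and ATP6V1G2, each below 1 CPM in every library, passed no test.

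The V0 sector held rises as well as falls. ATP6V0B (ENSG00000117410.13, chr1:43974487-43978295, plus strand), the c'' subunit whose promoter boxes are printed above, had 10.6, 7.86 and 9.24 CPM in normoxia and 5.29, 5.91 and 5.83 in hypoxia in shControl. In shRIPOR3 it had 13.2, 13.4 and 12.3 against 9.37, 10.3 and 9.44 CPM. Hypoxia libraries were lower in both lines, and the normoxia libraries of shControl overlapped the hypoxia libraries of shRIPOR3. The changes were -0.73 ± 0.094 (adjusted p = 2.65e-07) and -0.42 ± 0.08 (adjusted p = 9.34e-05), the former being the steepest fall of any pump gene in that comparison. ATP6V0E1 (ENSG00000113732.8, chr5:172983757-173035445, plus strand), a small subunit of the membrane sector, read 35.7, 35.5 and 37.2 against 24.3, 24.2 and 26.2 CPM in shControl and 41.8, 42.5 and 43.5 against 30.9, 29.3 and 31.2 in shRIPOR3, normoxia first. It fell by similar amounts in both lines, with changes of -0.54 ± 0.048 (adjusted p = 5.93e-10) and -0.48 ± 0.045 (adjusted p = 2.35e-09).

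ATP6V0D1 (ENSG00000159720.11, chr16:67438014-67481237, minus strand), the d subunit that couples the rotor to the ring, read 41.3, 43.0 and 41.2 CPM in normoxia and 33.8, 33.3 and 34.0 in hypoxia in shControl. In shRIPOR3 it read 36.8, 38.9 and 42.1 against 39.6, 36.4 and 37.8. The groups were apart in shControl and overlapped in shRIPOR3, where the change was -0.06 ± 0.048 (adjusted p = 0.341) beside -0.31 ± 0.049 (adjusted p = 6.15e-06) in shControl. ATP6V0A1 (ENSG00000033627.16, chr17:42458844-42522611, plus strand), one of the a subunits that form the proton channel, was an exception to the fall. It had 16.6, 15.8 and 16.0 CPM in normoxia and 21.7, 21.0 and 19.4 in hypoxia in shControl, a rise of 0.36 ± 0.063 (adjusted p = 2.5e-05), and 20.3, 23.2 and 24.3 against 25.1, 24.8 and 25.1 in shRIPOR3 (0.13 ± 0.057, adjusted p = 0.0557). The kidney a subunit ATP6V0A4 also rose in shControl, from 0.746 ± 0.293 to 1.37 ± 0.176 CPM (0.77 ± 0.22, adjusted p = 0.00372). ATP6V0A2 fell, with log2 fold changes of -0.18 ± 0.045 and -0.11 ± 0.044, which lost its call in shControl with library totals (adjusted p = 0.183) and changed sign in shRIPOR3 under them, to 0.0092. Leaving out any of 6 libraries also ended the call in shRIPOR3 (adjusted p of 0.0646 to 0.175).

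The accessory subunits ATP6AP1 and ATP6AP2, which help the pump to assemble and to reach its membranes, moved little. ATP6AP1 (ENSG00000071553.16, chrX:154428632-154436516, plus strand) had 31.3, 32.1 and 31.2 CPM in shControl and 31.9, 30.9 and 33.6 in shRIPOR3 in normoxia, and 33.3, 32.0 and 35.0 against 37.5, 36.4 and 39.6 in hypoxia. Its hypoxia libraries in shRIPOR3 were the highest, with a change of 0.23 ± 0.049 (adjusted p = 0.000249) there and of 0.09 ± 0.05 (adjusted p = 0.133) in shControl. ATP6AP2 (ENSG00000182220.14, chrX:40579372-40606848, plus strand), also known as the prorenin receptor, read 23.5, 23.7 and 23.9 against 26.5, 27.6 and 26.5 CPM in shControl and 25.7, 23.8 and 22.9 against 23.9, 24.6 and 21.6 in shRIPOR3, normoxia first. It rose in shControl (0.18 ± 0.056, adjusted p = 0.00774) and had -0.04 ± 0.056 (adjusted p = 0.558) in shRIPOR3, where the groups overlapped.

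Among the cathepsins the most abundant cysteine proteases split. CTSL (ENSG00000135047.14, chr9:87725519-87731393, plus strand), a potent endopeptidase, read 215, 245 and 219 CPM in normoxia and 142, 146 and 159 in hypoxia in shControl, and 263, 271 and 253 against 196, 201 and 207 in shRIPOR3. It fell in both lines, with log2 fold changes of -0.60 ± 0.049 (adjusted p = 9.68e-11) and -0.38 ± 0.048 (adjusted p = 2.48e-07). CTSB (ENSG00000164733.20, chr8:11842524-11869448, minus strand), which cuts from the end of a chain as well as within it, read 226, 224 and 219.5 against 224, 237 and 235 CPM in shControl and 196, 197 and 197 against 201, 192 and 199.9 in shRIPOR3. Its oxygen groups overlapped in both lines and its changes were 0.06 ± 0.036 (adjusted p = 0.172) and 0.01 ± 0.036 (adjusted p = 0.881). CTSZ (ENSG00000101160.13, chr20:58995185-59007247, minus strand), a carboxypeptidase, had 219, 199 and 215 against 216, 216 and 225 CPM in shControl and 162, 160.2 and 158 against 157, 148 and 161 in shRIPOR3. It too overlapped between oxygen levels, with changes of 0.05 ± 0.04 (adjusted p = 0.309) and -0.04 ± 0.041 (adjusted p = 0.394). Scaled to library totals, CTSB was called higher in hypoxia in both lines (0.17, adjusted p = 0.000219, and 0.13, adjusted p = 0.00335) and CTSZ in shControl (0.16, adjusted p = 0.00124).

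The aminopeptidases among them fell in shControl. CTSC, which activates granule proteases, went from 69.1 ± 1.23 to 49.8 ± 0.742 CPM in shControl (-0.47 ± 0.038, adjusted p = 8.21e-11) and from 84.5 ± 1.76 to 68.7 ± 0.863 in shRIPOR3 (-0.30 ± 0.036, adjusted p = 1.33e-07). CTSH (ENSG00000103811.16, chr15:78921058-78949574, minus strand) read 22.7, 27.2 and 23.8 CPM in normoxia and 17.4, 15.2 and 17.7 in hypoxia in shControl, and 25.6, 29.3 and 27.2 against 25.5, 24.6 and 24.7 in shRIPOR3. Its oxygen groups were far apart in shControl and close in shRIPOR3, with changes of -0.53 ± 0.068 (adjusted p = 2.59e-07) and -0.14 ± 0.062 (adjusted p = 0.0664).

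CTSW (ENSG00000172543.7, chr11:65879809-65883741, plus strand), known from cytotoxic lymphocytes, had the largest fold change of any member, the one with the hairpin in hypoxia described later. It read 4.43, 3.16 and 3.77 CPM in normoxia and 7.36, 6.69 and 8.04 in hypoxia in shControl, but only 1.45, 1.19 and 1.51 against 1.75, 1.87 and 1.74 in shRIPOR3. It rose in shControl by 0.93 ± 0.11 (adjusted p = 8.86e-08), with every hypoxia library above every normoxia library, and had 0.36 ± 0.17 (adjusted p = 0.0829) in shRIPOR3. Lymphocyte markers stood near 0 in all libraries (CD3E at most 3 counts and PTPRC at most 7). CTSO, a weakly read cysteine cathepsin, also rose in shControl, from 0.574 ± 0.277 to 1.18 ± 0.112 CPM (0.93 ± 0.25, adjusted p = 0.00217), while its 6 shRIPOR3 libraries lay between 0.412 and 0.463 CPM. CTSK, the osteoclast collagenase, rose in shControl from 0.343 ± 0.0855 to 0.774 ± 0.222 CPM (1.23 ± 0.39, adjusted p = 0.00813), a call that ended without the third shControl library in normoxia (adjusted p = 0.0624). CTSS, CTSV and CTSF read at most 2.30, 3.54 and 19.0 CPM in any library. They were called in 1 or both lines with changes of -0.45 and -0.54, -0.29 and -0.44, and 0.12 and 0.19. Leaving out single libraries ended those calls (adjusted p of 0.0544 to 0.226).

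Of the aspartic proteases CTSD (ENSG00000117984.13, chr11:1752752-1764573, minus strand), the main endopeptidase of the lysosome, rose. It read 13.0, 14.5 and 15.2 CPM in normoxia and 19.0, 16.1 and 18.0 in hypoxia in shControl, and 12.2, 11.6 and 11.03 against 15.9, 14.5 and 17.5 in shRIPOR3. Hypoxia libraries were higher without overlap in both lines (0.32 ± 0.079, adjusted p = 0.00122 and 0.48 ± 0.081, adjusted p = 2.19e-05). The annotation places AC068580.4 over 1304 of its 3126 exon bases on the same strand, so reads there could be assigned to either. CTSE, an endosomal relative below 1 CPM in every library, fell, with log2 fold changes of -0.78 ± 0.34 (adjusted p = 0.0491) and -0.99 ± 0.32 (adjusted p = 0.0106). The former call ended under 8 of the 12 left-out libraries (adjusted p of 0.052 to 0.167) and the latter without the third shRIPOR3 library in normoxia (adjusted p = 0.187). The serine protease CTSA, which also shields neuraminidase 1, rose from 34.8 ± 0.324 to 39.7 ± 2.09 CPM in shControl (0.19 ± 0.047, adjusted p = 0.00113) and from 40.6 ± 0.916 to 52.4 ± 1.69 in shRIPOR3 (0.37 ± 0.044, adjusted p = 1.48e-07). CTSA shares 1038 exon bases with NEURL2 on the opposite strand, and since the strand setting of the counting is not given in the sources used here, reads of the pair cannot be told apart.

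LAMP1 and LAMP2, though partners in the same membrane, differed. LAMP1 (ENSG00000185896.10, chr13:113297241-113323672, plus strand) read 83.4, 89.9 and 83.3 CPM in shControl and 103, 99.5 and 99.5 in shRIPOR3 in normoxia. In hypoxia it read 111, 111 and 110.2 against 139, 129.6 and 141. The 4 groups lay in steps without overlap, and it rose in hypoxia by 0.38 ± 0.041 (adjusted p = 1.7e-08) in shControl and 0.44 ± 0.04 (adjusted p = 1.18e-09) in shRIPOR3. LAMP2 (ENSG00000005893.15, chrX:120427827-120469365, minus strand), whose products serve chaperone-mediated autophagy as well, read 44.2, 49.0 and 43.5 against 45.5, 46.4 and 42.8 CPM in shControl and 48.1, 45.5 and 45.6 against 42.4, 42.0 and 43.0 in shRIPOR3, normoxia first. Its change was -0.01 ± 0.047 (adjusted p = 0.865) in shControl and -0.12 ± 0.046 (adjusted p = 0.0271) in shRIPOR3, where the call ended without any of 5 libraries (adjusted p of 0.0602 to 0.142) and where library totals gave -0.00086. LAMP3, known from mature dendritic cells and interferon responses, stayed between 0.633 and 1.45 CPM and passed no test.

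**Figure D3:**
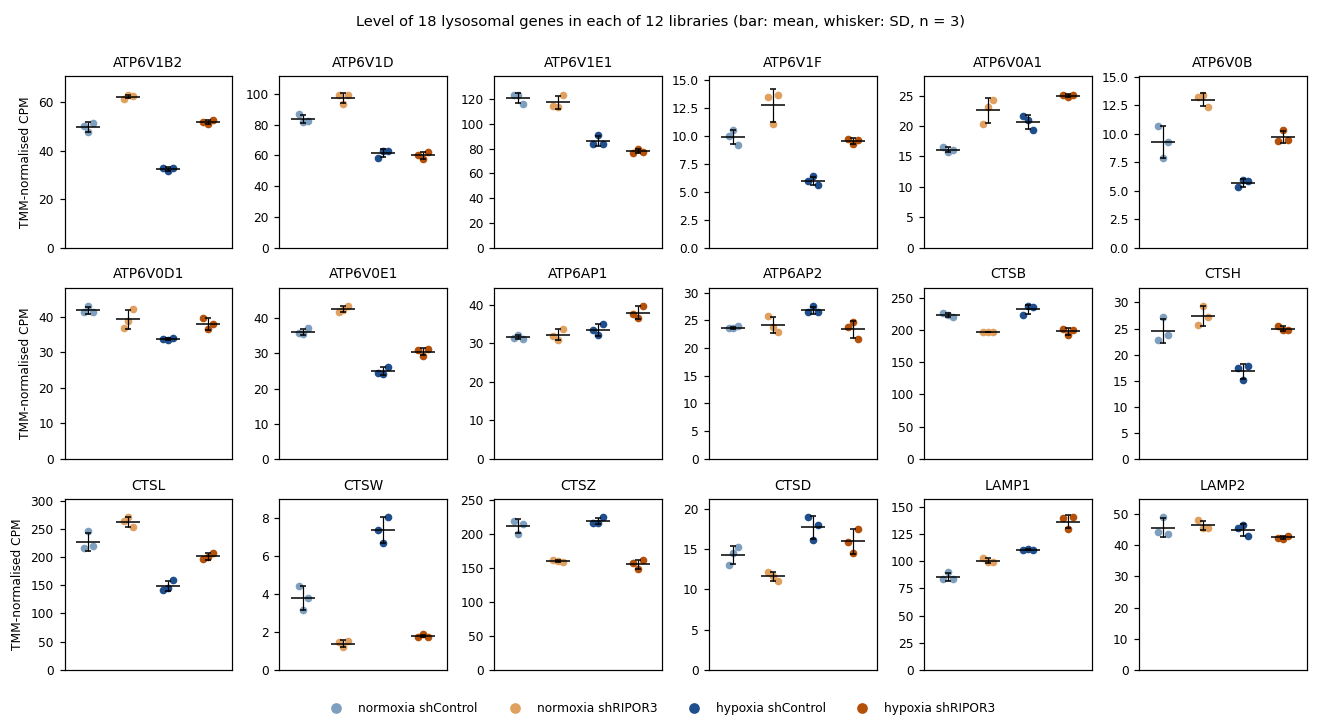
TMM-normalised CPM of 18 members in each of the 12 libraries, one panel per gene with its own axis from 0; points are libraries, bars group means and whiskers SD (n = 3). LAMP1 climbs from normoxia to hypoxia in both lines, the pump genes ATP6V1B2, ATP6V1D, ATP6V1E1 and ATP6V0E1 drop, and CTSW is high in shControl alone.

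Cells with the RIPOR3 hairpin had more RNA of several pump genes, LAMP1 and cathepsins A, C and L, and less of cathepsins B, W and Z, at both oxygen levels. Cathepsin H was also called higher and cathepsin F lower at both. The call of cathepsin H in normoxia and both calls of cathepsin F were lost without single libraries. In normoxia 10 of 19 tested pump genes rose and none fell, and in hypoxia 11 rose and 2 fell. Summed over the sector, V1 levels were 518 ± 9.04 CPM in shControl and 586 ± 8.98 in shRIPOR3 in normoxia, and 394 ± 8.05 and 447 ± 3.18 in hypoxia. The V0 sums were 167 ± 0.647 and 183 ± 6.21 CPM in normoxia, and 141 ± 1.48 and 165 ± 2.02 in hypoxia. Of all 40 tested members 16 rose and 5 fell in normoxia, where 25.1% of all tested genes rose and 20.6% fell (45.7% called), and 20 rose and 9 fell in hypoxia, against 30.7% and 31.2% (61.9% called). Over genes above 10 CPM, 34.8% rose in normoxia and 41.6% in hypoxia, beside 40% and 50% of the members. The median log2 fold change of the pump genes was 0.24 in normoxia and 0.21 in hypoxia, and that of all tested genes was 0.03 and -0.003. These 2 comparisons contrast different libraries within the same fit, and 14 members rose in both, 4 fell in both and none was called in opposite directions. The matching count over all tested genes was not made. Each knockdown comparison does share a group with each hypoxia comparison, so their values are only set side by side.

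In the V1 sector the B subunit of the head and the rotor subunit F rose at both oxygen levels. ATP6V1B2, with the library values given above, was higher in every shRIPOR3 library at both oxygen levels, by 0.32 ± 0.041 (adjusted p = 7.94e-07) in normoxia and 0.67 ± 0.039 (adjusted p = 3.32e-13) in hypoxia. ATP6V1F rose by 0.38 ± 0.087 (adjusted p = 0.000978) and 0.68 ± 0.081 (adjusted p = 9.15e-08), and its partner ATP6V1D by 0.22 ± 0.044 (adjusted p = 0.000266) in normoxia with -0.03 ± 0.042 (adjusted p = 0.615) in hypoxia. The stalk subunit ATP6V1G1, the most strongly read member per kb, rose from 144 ± 3.81 to 172 ± 5.80 CPM in normoxia and from 106 ± 3.48 to 137 ± 4.02 in hypoxia (0.26 ± 0.039 and 0.37 ± 0.038). The catalytic subunit ATP6V1A rose in hypoxia (0.30 ± 0.061, adjusted p = 0.000193) and had 0.11 ± 0.07 (adjusted p = 0.217) in normoxia. Both E subunits fell in hypoxia, with changes of -0.51 ± 0.11 (adjusted p = 0.000218) for ATP6V1E2 and -0.15 ± 0.042 (adjusted p = 0.00336) for ATP6V1E1, the latter call being lost without the second shControl library in hypoxia (adjusted p = 0.0544).

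In the V0 sector the ring subunits showed the largest rises in hypoxia. ATP6V0B had a log2 fold change of 0.46 ± 0.09 (adjusted p = 0.000189) in normoxia and 0.77 ± 0.084 (adjusted p = 2.23e-08) in hypoxia, and its shRIPOR3 libraries lay above its shControl libraries at each oxygen level. ATP6V0C rose from 3.02 ± 0.195 to 3.90 ± 0.116 CPM in normoxia (0.36 ± 0.12, adjusted p = 0.0175) and from 2.59 ± 0.0844 to 4.08 ± 0.199 in hypoxia (0.65 ± 0.097, adjusted p = 3.34e-06), and the call in normoxia ended without the third library of either line (adjusted p of 0.0706 and 0.0755). ATP6V0A1, the a subunit, rose by 0.50 ± 0.067 (adjusted p = 1.35e-06) and 0.27 ± 0.054 (adjusted p = 0.000119). ATP6V0A4 rose in normoxia (0.79 ± 0.24, adjusted p = 0.00883, lost without the third shRIPOR3 library in normoxia at an adjusted p of 0.0558), while ATP6V0A2 had -0.01 and 0.05 with no call. The membrane subunit ATP6V0E1 rose by 0.24 ± 0.048 (adjusted p = 0.000254) and 0.29 ± 0.045 (adjusted p = 4.62e-06). ATP6V0E2, its close relative, rose in hypoxia (0.41 ± 0.073, adjusted p = 3.35e-05) and had 0.17 ± 0.085 (adjusted p = 0.109) in normoxia. Among the accessory subunits ATP6AP1 rose (0.18 ± 0.045, adjusted p = 0.00127) and ATP6AP2 fell (-0.20 ± 0.051, adjusted p = 0.00135) in hypoxia, and neither was called in normoxia (0.04 and 0.02).

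CTSW had the largest fold change of any tested member. Its log2 fold change in shRIPOR3 was -1.48 ± 0.17 (adjusted p = 9.22e-08) in normoxia and -2.05 ± 0.11 (adjusted p = 6.67e-14) in hypoxia, and the groups were far from overlapping. CTSZ and CTSB fell with the hairpin at both oxygen levels: CTSZ had changes of -0.40 ± 0.042 (adjusted p = 2.31e-08) and -0.49 ± 0.04 (adjusted p = 1.27e-10), and CTSB of -0.18 ± 0.037 (adjusted p = 0.000256) and -0.23 ± 0.035 (adjusted p = 4.23e-06). All 6 shRIPOR3 libraries of each were below all 6 shControl libraries. CTSF, a widely made cysteine cathepsin, fell, with log2 fold changes of -0.28 ± 0.083 (adjusted p = 0.00821) and -0.20 ± 0.067 (adjusted p = 0.0102). Its calls were lost without the third shControl library in normoxia (adjusted p = 0.0642) and without the first shControl or second shRIPOR3 library in hypoxia (adjusted p of 0.137 and 0.0592). CTSO, called in hypoxia alone, went from 1.18 ± 0.112 to 0.434 ± 0.0126 CPM (-1.44 ± 0.22, adjusted p = 4.48e-06) and had -0.53 ± 0.34 (adjusted p = 0.208) in normoxia.

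The other major endopeptidase rose: CTSL gained 0.21 ± 0.048 (adjusted p = 0.000828) in normoxia and 0.43 ± 0.048 (adjusted p = 2.59e-08) in hypoxia. The aminopeptidases CTSC and CTSH rose as well, CTSC by 0.29 ± 0.038 (adjusted p = 7.48e-07) and 0.47 ± 0.035 (adjusted p = 4.95e-11), and CTSH by 0.18 ± 0.068 (adjusted p = 0.0361) and 0.57 ± 0.062 (adjusted p = 1.96e-08). The call of CTSH in normoxia, where its groups overlapped, was lost without any of 6 libraries (adjusted p of 0.0564 to 0.2) and with DESeq2 (adjusted p = 0.0787). CTSV, a close relative of CTSL in sequence with which reads could be shared, rose by 0.53 ± 0.16 and 0.38 ± 0.14, and these calls were lost without 2 and 3 single libraries (adjusted p of 0.0517 to 0.114). CTSA rose by 0.22 ± 0.049 (adjusted p = 0.000691) and 0.40 ± 0.042 (adjusted p = 1.09e-08). CTSD fell in normoxia (-0.31 ± 0.091, adjusted p = 0.00751), which was lost without the third shControl library there (adjusted p = 0.067), and had -0.15 ± 0.069 (adjusted p = 0.0721) in hypoxia. CTSK was called lower in hypoxia (-0.73 ± 0.3, adjusted p = 0.0373) with overlapping groups, lost without any of 4 libraries (adjusted p of 0.112 to 0.178). CTSE and CTSS passed no test of the hairpin.

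LAMP1 rose with the hairpin by 0.24 ± 0.042 (adjusted p = 5.7e-05) in normoxia and 0.30 ± 0.038 (adjusted p = 2.24e-07) in hypoxia, the only member beside CTSA that rose in all 4 comparisons. LAMP2 had 0.03 ± 0.049 (adjusted p = 0.614) and -0.08 ± 0.044 (adjusted p = 0.118). The antisense transcript ATP6V0E2-AS1 rose in hypoxia with the hairpin, from 3.29 ± 0.412 to 4.54 ± 0.160 CPM (0.45 ± 0.11, adjusted p = 0.00125). It shares 864 exon bases with ATP6V0E2, and reads of the pair cannot be told apart without the strand setting. ATP6V1B1-AS1, read at 0.945 ± 0.131 and 1.62 ± 0.183 CPM in the same groups, rose there too (0.75 ± 0.17, adjusted p = 0.000608), although ATP6V1B1 itself had at most 3 counts in any library. ATP6V1B1-AS1 shares 898 of its 1139 exon bases with AC007040.2 on the same strand, so its reads may belong to that gene. It fell in hypoxia in both lines (-0.77 ± 0.2 in shControl and -0.45 ± 0.16 in shRIPOR3), the latter call being lost without the first shRIPOR3 library in hypoxia or the third in normoxia (adjusted p of 0.101 and 0.206).

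The effect of hypoxia itself differed between the lines for 8 members, by the interaction of hairpin and oxygen in the same fit. Positive values mean a higher response to hypoxia in shRIPOR3 than in shControl. There were 6 positive and 2 negative calls, or 15% and 5% of the members, beside 10.9% and 12.3% of all tested genes (23.2% called) and 18.4% and 16.9% of those above 10 CPM. CTSH had the largest called difference at 0.39 ± 0.092 (adjusted p = 0.003), its fall in shControl standing beside a change that missed the threshold in shRIPOR3. ATP6V1B2 followed with 0.35 ± 0.057 (adjusted p = 7.83e-05), and ATP6V0D1 with 0.25 ± 0.068 (adjusted p = 0.00877): in both the change in shRIPOR3 was nearer to 0. CTSC had 0.17 ± 0.052 (adjusted p = 0.017). The rotor subunit ATP6V1D went the other way, with a steeper fall in shRIPOR3 (-0.24 ± 0.061, adjusted p = 0.00521). Differences of CTSL (0.22 ± 0.068, adjusted p = 0.0203), CTSA (0.18 ± 0.065, adjusted p = 0.0471) and ATP6AP2 (-0.22 ± 0.079, adjusted p = 0.0477) were near the threshold and were lost without any of 4, 9 and 10 libraries (adjusted p of 0.0557 to 0.0642, 0.0506 to 0.128 and 0.0573 to 0.193). CTSW missed the threshold (-0.57 ± 0.21, adjusted p = 0.0527). ATP6V0B and ATP6V1F, at 0.32 ± 0.12 (adjusted p = 0.068) and 0.31 ± 0.12 (adjusted p = 0.067), missed it too.

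**Figure D4:**
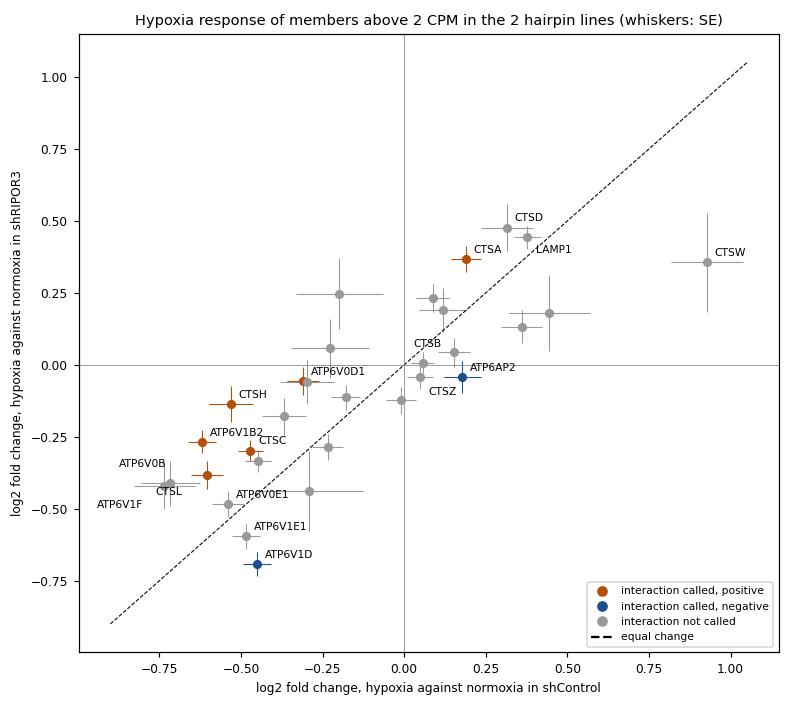
Log2 fold change of hypoxia against normoxia in shControl (x axis) and in shRIPOR3 (y axis) for the 31 tested members with a mean above 2 CPM; whiskers are standard errors, colours mark the interaction call and the dashed line marks equal change. CTSH and ATP6V1B2 lie above the line and ATP6V1D below it, while LAMP1 and CTSD are positive on both axes.

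Other lysosomal genes gave the members a setting: 97 were in the table in 7 lists and 92 were tested. In hypoxia 35 rose and 27 fell in shControl and 28 rose and 31 fell in shRIPOR3, with medians of 0.05 and -0.01. These are 38% and 29.3% in shControl and 30.4% and 33.7% in shRIPOR3, beside 32.4% and 32.4%, and 25.2% and 30.4%, of all tested genes. The lysosomal hydrolases, which digest lipids and sugars, included more rises than falls in hypoxia: of 34 tested, 18 rose and 5 fell in shControl and 14 rose and 7 fell in shRIPOR3. The rises were 52.9% and 41.2% of the list, where 32% and 28.6% of genes above 10 CPM rose. GM2A, the activator of ganglioside breakdown, rose in shControl (0.69 ± 0.048, adjusted p = 5.87e-12), and ASAH1, the acid ceramidase, fell there (-0.76 ± 0.057, adjusted p = 2.77e-11). Levels in shRIPOR3 had the same directions: GM2A read 23.0 ± 0.633 CPM in normoxia and 28.9 ± 1.61 in hypoxia, and ASAH1 27.0 ± 1.07 and 20.1 ± 0.979. NPC1, which exports cholesterol from the lysosome, rose in both lines (0.85 ± 0.04, adjusted p = 7.52e-15 and 0.51 ± 0.04, adjusted p = 1.02e-10). Of the receptors that carry hydrolases and cathepsins to the lysosome, IGF2R rose by 1.13 ± 0.036 (adjusted p = 4.66e-18) and 1.18 ± 0.036 (adjusted p = 9.29e-18), while M6PR fell in shControl (-0.47 ± 0.039, adjusted p = 1.49e-10). M6PR was also lower in hypoxia in shRIPOR3, at 112 ± 1.89 CPM in normoxia and 95.1 ± 2.56 in hypoxia.

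With the hairpin 32 of the 92 rose and 22 fell in normoxia, and 34 rose and 28 fell in hypoxia. These shares, 34.8% and 23.9% in normoxia and 37% and 30.4% in hypoxia, lay near or below those of genes above 10 CPM, which were 34.8% and 26.7%, and 41.6% and 33.4%. NEU1, the neuraminidase that cathepsin A protects, rose by 0.72 ± 0.055 (adjusted p = 1.43e-10) in normoxia and 0.81 ± 0.047 (adjusted p = 4.12e-13) in hypoxia. LAPTM5, a lysosomal membrane protein known from immune cells, fell, with log2 fold changes of -0.74 ± 0.053 (adjusted p = 5.38e-11) and -0.74 ± 0.043 (adjusted p = 3.73e-13), and the channel TPCN1 had -0.72 ± 0.067 (adjusted p = 5.43e-09) and -0.58 ± 0.055 (adjusted p = 2.91e-09). VPS39, a subunit of the HOPS tether that fuses vesicles with lysosomes, fell, with log2 fold changes of -0.95 ± 0.09 (adjusted p = 5.9e-09) and -0.90 ± 0.067 (adjusted p = 3.39e-11). Of the 10 genes for assembly and regulation of the V-ATPase, 4 rose (40%) and none fell in normoxia and 3 rose (30%) and 3 fell (30%) in hypoxia. TMEM199, an assembly factor of the pump, rose by 0.49 ± 0.085 (adjusted p = 4.52e-05) and 0.83 ± 0.075 (adjusted p = 8.31e-10), and the chaperone VMA21 by 0.25 ± 0.052 (adjusted p = 0.000285) and 0.30 ± 0.046 (adjusted p = 4.12e-06). Of the 10 Ragulator and Rag genes, which tether nutrient signalling to the lysosome next to the pump, 6 rose (60%) and 1 fell (10%) in hypoxia, the latter being RRAGA (-0.39 ± 0.041, adjusted p = 1.16e-08).

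TFEB, the factor named for the promoter box, was lower in shRIPOR3 than in shControl. It read 4.43, 3.30 and 2.80 CPM in shControl and 2.18, 2.06 and 1.68 in shRIPOR3 in normoxia, and 2.90, 2.80 and 2.90 against 1.43, 1.27 and 1.61 in hypoxia. The log2 fold change was -0.87 ± 0.18 (adjusted p = 0.000255) in normoxia and -0.98 ± 0.15 (adjusted p = 3.82e-06) in hypoxia, while hypoxia against normoxia missed the threshold, at -0.29 ± 0.15 (adjusted p = 0.0834) in shControl and -0.41 ± 0.18 (adjusted p = 0.0625) in shRIPOR3. TFE3, its relative, was read at 103 ± 3.61 CPM in shControl in normoxia and fell with the hairpin in hypoxia, with a log2 fold change of -0.10 ± 0.039 (adjusted p = 0.0281). MITF, the third such factor, fell there, with a log2 fold change of -0.16 ± 0.04 (adjusted p = 0.00106) and rose in hypoxia in shControl by 0.19 ± 0.043 (adjusted p = 0.000548). Of the 8 members with CACGTG in the promoter, ATP6V0B, ATP6V0D1, ATP6V0E2, ATP6V1G1, CTSA and LAMP1 rose with the hairpin in hypoxia, CTSF fell and CTSD was not called. In that comparison 50% of the tested members and 30.7% of all tested genes rose. In normoxia ATP6V0B, ATP6V1G1, CTSA and LAMP1 rose with the hairpin, CTSF and CTSD fell, and ATP6V0D1 (-0.08 ± 0.051) and ATP6V0E2 (0.17 ± 0.085) were not called. There 40% of the tested members rose and 12.5% fell, beside 25.1% and 20.6% of all tested genes. In hypoxia in shControl the 4 pump genes among them fell, CTSA, CTSD and LAMP1 rose and CTSF was not called. In shRIPOR3 ATP6V0B and ATP6V1G1 fell, the cathepsins and LAMP1 among them rose and ATP6V0D1 and ATP6V0E2 were not called. Of all tested genes 32.4% rose and 32.4% fell in hypoxia in shControl, and 25.2% rose and 30.4% fell in shRIPOR3. Calls of other genes with CACGTG were not counted, so a difference tied to the box was not tested. Messenger RNA does not show the location or phosphorylation of TFEB, TFE3 and MITF, on which their activity is known to depend. CST3, the secreted inhibitor of cysteine cathepsins, fell with the hairpin, with log2 fold changes of -0.36 ± 0.063 (adjusted p = 4.03e-05) and -0.50 ± 0.053 (adjusted p = 1.39e-08) and rose in hypoxia in shControl by 0.24 ± 0.057 (adjusted p = 0.000747).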

How the data were processed

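The authors deposited raw counts per gene symbol, 1 column per library, with no normalization in the values; no column belonged to another sample. Tools listed in the submitters' processing notes, without roles, are STAR 2.5.3a, featureCounts and fastp 0.23.4, with build GRCh38; annotation and strand setting are not stated there, and per the labels the kit was stranded. The exclusion of names that end in P plus digits was applied to pump symbols only, since it would otherwise drop LAMP1, LAMP2 and LAMP3. Members and lists were chosen with earlier results of these data known.

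A model in edgeR 4.0.16, run under R 4.3.3, used the counts with TMM factors (0.95148 to 1.0483), filterByExpr and 1 coefficient per group over all 12 libraries. Quasi-likelihood F-tests were adjusted by Benjamini and Hochberg over 15648 genes, with a threshold of 0.05, and SE is the absolute log2 fold change divided by the root of F. The code was tested on simulated data. Values in every library are given for ATP6AP1, ATP6AP2, LAMP1, LAMP2, CTSB, CTSD and CTSL and, per comparison, for the 4 called members with the largest change among those at 5 CPM or more in the higher group, without overlap outside the interaction. Of each other list at most 2 called genes per comparison are named, by smallest p, beside TFEB, TFE3 and MITF. All 43 members matched 1 gene in GENCODE 29, which gave lengths and coordinates. Alternatives were DESeq2 1.42.0, other scaling factors, other filters, a replicate block, fits of 2 groups and leaving out each library. Depth limits members below 1 CPM most. Figures were drawn in Python 3.11.15 with matplotlib 3.10.9.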

Additional observations from a re-analysis of the deposited data

Results flagged for a closer look

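The response to hypoxia differed between the shControl and shRIPOR3 lines for 8 members, by the interaction term of edgeR's quasi-likelihood fit over all genes. Positive calls made up 15% of the tested members and negative calls 5%. Beside these stood 10.9% and 12.3% of all tested genes (23.2% called) and 18.4% and 16.9% of those above 10 CPM. The members were thus called less often than genes above 10 CPM, but many members lay below 10 CPM, so the sets are unlike. Their share was near that of all tested genes. CTSH (0.39, adjusted p = 0.003), ATP6V1B2 (0.35, adjusted p = 7.83e-05), ATP6V0D1 (0.25, adjusted p = 0.00877), CTSL (0.22, adjusted p = 0.0203) and CTSC (0.17, adjusted p = 0.017) fell in shControl, and their changes in shRIPOR3 were nearer to 0 on the log2 scale. CTSA rose more in shRIPOR3 (0.18, adjusted p = 0.0471). ATP6V1D fell more in shRIPOR3 (-0.24, adjusted p = 0.00521), and ATP6AP2, which rose in shControl alone, differed by -0.22 (adjusted p = 0.0477). The differences of CTSL, CTSA and ATP6AP2 were lost when 1 of 4, 9 and 10 of the 12 libraries was left out. All normoxia libraries were shallower than all hypoxia libraries in both lines, and the part of depth in these differences was not tested.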

How the results depend on the processing

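Over the alternatives 3933 values of single members were recomputed: 3744 kept their side of the threshold, 130 lost the call, 58 gained one and 1 reversed. A reversal was counted only where the main fit or the alternative made a call, so sign changes of uncalled values count among the 3744. Of 109 calls 82 held under every alternative. The reversal was ATP6V0A2 in hypoxia in shRIPOR3, at 0.0092 with library totals. Members that rose in hypoxia in shRIPOR3 numbered 5, but 10 with library totals, and 4 to 8 when single libraries were left out (8 without the third shControl library in hypoxia). Members that fell there numbered 17, but 11 with DESeq2 and 11 with library totals; library totals also gave 16 up and 14 down in shControl. Those that fell with the hairpin in normoxia numbered 5, and 3 to 5 when libraries were left out (3 without the third shControl library in normoxia). Negative interaction calls numbered 2, but 1 with DESeq2, median-of-ratios factors, upper-quartile factors, library totals or no filter, 5 with a filter of 1 CPM in 3 libraries, and 1 to 3 when libraries were left out (1 without shControl replicate 2 or 3 in normoxia, or without shControl replicate 1 or shRIPOR3 replicate 1 or 3 in hypoxia). Why these counts moved was not tested. Replicate numbers showed no pairing of the libraries over all tested genes: deviations of same-numbered libraries correlated at -0.0565 to 0.0596 over 18 pairs. Noise of weakly read genes enters these correlations, so a small shared effect could be missed. With a replicate block 12 members rose and 17 fell in hypoxia in shControl, 5 and 17 in shRIPOR3, 16 and 5 with the hairpin in normoxia, 20 and 9 in hypoxia, and 6 positive and 3 negative interactions were called. Weak members such as CTSE, CTSK and ATP6V1C2 had standard errors of up to 0.62 and only large changes could be seen in them.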

Other observations

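Lysosomal genes outside the pump, the cathepsins and the LAMP family also differed between groups. The values are log2 fold changes from the same edgeR fit, for genes named by smallest p within each list. In hypoxia the Ragulator subunits LAMTOR4 and LAMTOR5, which anchor mTORC1 signalling at the lysosome, fell in both lines, LAMTOR4 with -0.56 ± 0.047 (adjusted p = 2.18e-10) in shControl and -0.36 ± 0.045 (adjusted p = 2.3e-07) in shRIPOR3 and LAMTOR5 with -0.37 ± 0.058 (adjusted p = 6.11e-06) and -0.39 ± 0.055 (adjusted p = 2.06e-06). OXR1, a protein of the TLDc family that binds the V-ATPase, fell in both lines as well (-0.26 ± 0.042, adjusted p = 9.64e-06, and -0.49 ± 0.041, adjusted p = 3.48e-10), and its fall was steeper in shRIPOR3 (interaction -0.24 ± 0.059, adjusted p = 0.00463). OSTM1, the partner of the chloride transporter CLCN7, fell in shControl (-0.87 ± 0.075, adjusted p = 3.11e-10). It was also lower in hypoxia in shRIPOR3, at 17.4 ± 1.18 CPM in normoxia and 11.5 ± 0.516 in hypoxia. CST6, an inhibitor of cysteine cathepsins, was called higher in both lines (1.52 ± 0.43, adjusted p = 0.00361, and 1.10 ± 0.35, adjusted p = 0.0104). Its reads were few, at 0.123 ± 0.0549 CPM in normoxia and 0.394 ± 0.117 in hypoxia in shControl. In shRIPOR3 it read 0.234 ± 0.0276 and 0.495 ± 0.0231 CPM.

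With the RIPOR3 hairpin the adaptor subunit AP3D1, which sorts membrane proteins to lysosomes, fell in normoxia (-0.62 ± 0.042, adjusted p = 1.45e-11). In hypoxia it was lower too, at 312 ± 2.54 CPM in shControl and 225 ± 2.18 in shRIPOR3. FLCN and RRAGD, both of the nutrient-sensing Rag system, rose in normoxia, with 0.53 ± 0.11 (adjusted p = 0.00034) and 0.32 ± 0.088 (adjusted p = 0.00423). In hypoxia FLCN read 5.74 ± 0.626 CPM in shControl and 7.63 ± 0.193 in shRIPOR3, and RRAGD 13.5 ± 0.273 and 12.8 ± 0.409. Among the membrane and hydrolase lists the negative interactions with the smallest p were those of SCARB2, the receptor that carries glucocerebrosidase to the lysosome (-0.36 ± 0.055, adjusted p = 4.1e-05), and GALC, the galactosylceramidase (-0.39 ± 0.075, adjusted p = 0.000482).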
